A study of Mus musculus with 6 samples.

Results

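Noncoding transcripts of the RefSeq catalogue were measured in airway epithelium of the mouse with and without TGF-β1. They were the probes for transcripts whose RefSeq accession starts with NR, which RefSeq gives to RNAs that are not translated. Of 2477 such probes on the array, for 2342 transcripts, 853 probes for 805 transcripts passed the detection filter (marked as well above background on 3 or more of the 6 arrays) and were compared. They belonged to 751 genes, and 42 of the 853 probes had an accession that matched no gene in the RefSeq table used. The whole array held 56605 probes for transcripts, of which 32460 were tested.

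The cells were 2D-MAOs, organoids of lung airway epithelial cells from C57BL/6 mice that were replated as a flat layer. The treated cultures received TGF-β1 from day 3 in a medium that lacked noggin, which blocks BMP signals, and A83-01, which blocks the TGF-β receptor kinase. The control cultures received no TGF-β1 in medium of the same kind, and all cultures were collected on day 7. Each group had 3 biological replicates, each on 1 single-colour Agilent array, and the concentration of TGF-β1 was not given for these arrays.

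Noncoding RNAs act without being translated. Long noncoding RNAs can recruit chromatin regulators, hold nuclear bodies together, carry microRNAs or small nucleolar RNAs in their sequence, or affect the gene they overlap, and small structural RNAs work in splicing, RNA processing and ribosome biogenesis. Pseudogenes are copies of genes that have lost their reading frame, and many are still transcribed. TGF-β1 signals through receptor kinases to Smad proteins, which enter the nucleus and change transcription, and in epithelia it is known for driving epithelial-mesenchymal transition (EMT).

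All values are log2 signals after quantile normalization, so that a difference of 1 is a 2-fold change. A probe was called when it differed by 2-fold or more with an adjusted p below 0.05 over all probes tested, by limma. Few noncoding probes passed. In the TGF-β1-treated 2D-MAOs, 6 were higher, for Phxr4, 3830432H09Rik, Morrbid, 4931420L22Rik, Olfr1372-ps1 and Serpina3h, and 2 were lower, for D630024D03Rik and A930017M01Rik. The largest increase among those above background on all 6 arrays was 3.14-fold, and the larger decrease was 3.33-fold.

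Of the called genes, 5 are long noncoding RNA genes, and the promoters of 4 of these were in the RefSeq table. They are shown because the RNAs that start in them were called. Each stretch runs from 250 bases before to 50 bases after the start of the gene on GRCm38.p6. Capitals mark matches, on either strand, to a Smad-type motif (CAGACA) or an AP-1 motif (TGANTCA), and a TEAD-type motif (GGAATG) was searched as well. The promoter of Phxr4 lies at chr9:13431111-13431410 on the plus strand, that of 3830432H09Rik at chr1:119536116-119536415 on the minus strand, that of Morrbid at chr2:128429302-128429601 on the minus strand and that of D630024D03Rik at chr11:31824498-31824797 on the minus strand.
Phxr4: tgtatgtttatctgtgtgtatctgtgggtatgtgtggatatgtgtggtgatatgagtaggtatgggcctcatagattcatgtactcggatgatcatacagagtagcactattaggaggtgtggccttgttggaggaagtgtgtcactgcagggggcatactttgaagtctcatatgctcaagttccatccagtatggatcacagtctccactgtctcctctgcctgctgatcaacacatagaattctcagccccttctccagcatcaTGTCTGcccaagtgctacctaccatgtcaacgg
3830432H09Rik: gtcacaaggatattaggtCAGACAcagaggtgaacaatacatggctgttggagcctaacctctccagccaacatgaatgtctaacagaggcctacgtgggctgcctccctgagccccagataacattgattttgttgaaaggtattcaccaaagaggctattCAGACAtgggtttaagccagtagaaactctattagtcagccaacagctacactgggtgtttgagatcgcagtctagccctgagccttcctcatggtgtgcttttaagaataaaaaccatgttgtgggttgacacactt
Morrbid: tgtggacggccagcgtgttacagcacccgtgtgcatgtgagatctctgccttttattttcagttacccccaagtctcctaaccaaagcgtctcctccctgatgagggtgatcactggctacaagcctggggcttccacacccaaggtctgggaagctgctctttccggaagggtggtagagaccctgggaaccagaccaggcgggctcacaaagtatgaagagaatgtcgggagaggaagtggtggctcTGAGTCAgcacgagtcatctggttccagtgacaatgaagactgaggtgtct
D630024D03Rik: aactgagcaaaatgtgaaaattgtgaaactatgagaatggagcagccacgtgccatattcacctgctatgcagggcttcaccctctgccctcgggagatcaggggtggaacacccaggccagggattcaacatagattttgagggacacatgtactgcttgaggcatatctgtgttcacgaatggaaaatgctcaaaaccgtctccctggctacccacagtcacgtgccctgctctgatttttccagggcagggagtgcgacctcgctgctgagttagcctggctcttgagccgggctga

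Counted from the first transcribed base as 1, the Smad-type letters began at 18 in Phxr4, and at -232 and -88 in 3830432H09Rik. The AP-1 letters began at -1 in Morrbid, and none of the motifs was in the window of D630024D03Rik. Among 32851 RefSeq promoters of the same length, 21.0% held the Smad-type letters, 7.81% the AP-1 letters and 14.7% the TEAD-type letters. A match describes the letters of these windows and is not evidence of binding.

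Noncoding probes were above background less often than coding ones. Of the NR probes, 34.4% passed the detection filter, and of the 29635 probes for coding (NM) transcripts, 67.9% did. On the control arrays 32.3% to 35.4% of NR probes were well above background, and on the TGF-β1 arrays 32.9% to 36.9%. Of the NR probes, 731 were above background on all 6 arrays, 122 on 3 to 5, 149 on 1 or 2 and 1475 on none. The cultures had signals of airway markers, among them Nkx2-1, Epcam, Krt5, Trp63, Scgb1a1 and Foxj1 on all 6 arrays. Cav1 and Ager of type 1 alveolar cells were also above background on all 6 arrays. By the paper's staining, type 1 alveolar cells with caveolin were the predominant kind. Muc5ac and Muc5b of goblet cells and Sftpc of type 2 alveolar cells were above background on 0 of the 6 arrays. Of the endothelial markers Pecam1 was above background on all 6 arrays and Cdh5 on 0, and of the leukocyte markers Cd68 was on all 6 and Ptprc on 0. Of the fibroblast markers Pdgfra was above background on all 6 arrays, and Col1a1 and Col1a2 were on 0 control and all 3 TGF-β1 arrays. In cultures of mixed cells, fewer cells of a type and less RNA per cell cannot be told apart.

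TGF-β1 replicate 3 stood apart from the other treated arrays. Over the noncoding probes, the distance between TGF-β1 replicates 1 and 2 was 10.05 (the square root of summed squared log2 differences), and TGF-β1 replicate 3 lay 15.76 and 15.10 from them. Its nearest array was control replicate 3, at 11.87. The 6 arrays shared a slide, on which replicate 3 of each group was in row 2 and the other 4 arrays were in row 1, and they were scanned together. Results that rest on TGF-β1 replicate 3 are therefore given with and without it.

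The 6 probes called higher were 0.703% of the noncoding probes, beside 0.983% of all probes tested. For the 2 called lower, the share was 0.234%, beside 0.209% of all probes. Another 2 probes had an adjusted p below 0.05 with less than a 2-fold change, for Hottip and a second Olfr1372-ps1 probe. At an unadjusted p below 0.05, 74 noncoding probes were higher (8.68%, beside 12.8% of all probes) and 134 were lower (15.7%, beside 13.1% of all probes). Groups that did not overlap were seen for 228 noncoding probes, 76 higher and 152 lower in TGF-β1-treated cells, which is 26.7% beside 29.8% of all probes tested. The differences of 90% of the noncoding probes lay between -0.64 and 0.65 on the log2 scale, beside -0.61 and 0.74 for all probes. The median difference was -0.08 for the noncoding probes, -0.07 for coding RefSeq probes and -0.05 for all probes tested, and 58.5% of noncoding probes and 55.2% of all probes were fitted as lower.

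Without TGF-β1 replicate 3, 24 noncoding probes were called higher (2.81%, beside 3.57% of all probes) and 16 lower (1.88%, beside 1.30% of all probes). All 8 probes called with the 6 arrays were among them. When each array was left out in turn, Phxr4 alone was called in every set of 5 arrays.

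**Figure D1:**
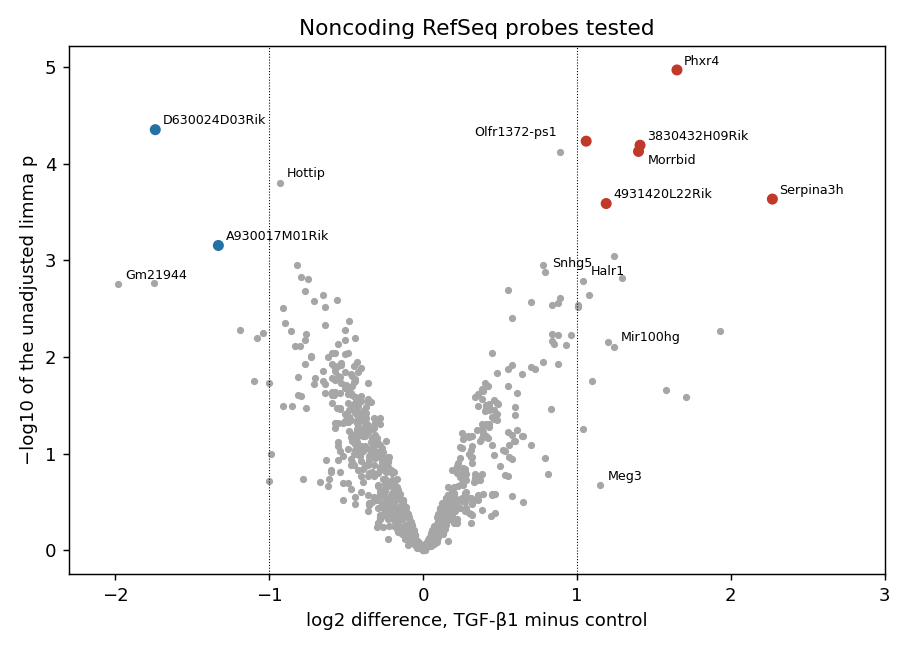
Log2 difference between TGF-β1-treated and control 2D-MAOs (x axis) against the negative log10 of the unadjusted limma p (y axis) for 853 noncoding RefSeq probes, 1 point per probe. Red points were called higher (6), blue points called lower (2), and dotted lines mark a 2-fold change; most points lie between the lines.

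Phxr4, a long noncoding RNA gene named for its repeats of hexamers, rose in TGF-β1-treated cells. Its log2 signals were 7.22, 7.48 and 7.63 on the control arrays and 9.10, 9.27 and 8.92 on the TGF-β1 arrays. Every treated array was above every control array. The difference was 1.65 (SE 0.16, n = 3 per group, limma adjusted p = 0.00707), a 3.14-fold increase. Phxr4 lies within Maml2, a coactivator of Notch-dependent transcription, on the same strand. The probes for Maml2 gave 0.59 and 0.68 (adjusted p = 0.104 and 0.0829), and the second of them read 10.26, 10.27 and 10.35 in control cells and 10.92, 10.72 and 11.30 in treated cells. The Maml2 arrays did not overlap between groups either, with differences smaller than that of Phxr4. Whether the Phxr4 probe also reads unspliced Maml2 RNA was not tested.

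Morrbid, a long noncoding RNA known in myeloid cells as a brake on the apoptosis gene Bcl2l11 (Bim), also rose. The probe for NR_028591 read 7.30, 7.54 and 7.43 in control cells and 8.96, 9.06 and 8.47 in treated cells. Control and treated arrays were separate, and TGF-β1 replicate 3 was the lowest of the treated ones. The difference was 1.40 (SE 0.18, adjusted p = 0.0168 by limma), a 2.65-fold increase, and it was called in 2 of the 6 sets of 5 arrays. A probe for the other Morrbid transcript, NR_028590, differed by 1.71 (adjusted p = 0.147) and was above background on 1 control and 2 treated arrays. Bcl2l11 itself, which promotes apoptosis, gave -0.36 to -0.01 on 4 probes, with adjusted p from 0.141 to 0.986.

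3830432H09Rik, a long noncoding RNA gene of unassigned function, read 9.57, 9.97 and 9.91 in control cells and 10.96, 11.28 and 11.44 in treated cells. Here TGF-β1 replicate 3 was the highest treated array. The difference was 1.41 (SE 0.18, adjusted p = 0.0163 by limma), or 2.66-fold, called in 3 of 6 sets of 5 arrays. The coding genes within 10 kb of it were Epb41l5, a FERM-domain protein of epithelial polarity, and Tmem185b. The probes for Epb41l5 gave -0.55 to 0.16, and the Tmem185b probe gave 0.17; none was called.

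4931420L22Rik was the other long noncoding RNA called higher. Its signals of 3.68, 3.66 and 3.68 in control cells were not well above background, and it read 5.21, 4.84 and 4.53 in treated cells, where all 3 arrays were above background. The increase was at least 1.82-fold, measured against the lowest signal well above background on each control array (limma adjusted p = 0.029). That bound is under 2-fold, so the call and its p rest on control signals that were not well above background. The probe passed the detection filter through the treated arrays alone. With the normexp background correction the difference shrank to 0.28 (adjusted p = 0.124).

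D630024D03Rik was the only long noncoding RNA called lower. The probe for NR_102312 read 6.65, 6.32 and 5.99 in control cells and 4.63, 4.32 and 4.79 in treated cells. The lowest control array was above the highest treated one. The difference was -1.74 (SE 0.20, adjusted p = 0.0139 by limma), a 3.33-fold decrease, called in 3 of 6 sets of 5 arrays. A second probe, for NR_102310, differed by -1.75 (SE 0.36, adjusted p = 0.0659), and by -2.17 without TGF-β1 replicate 3 (adjusted p = 0.00689). With normexp, the first probe's difference was -0.68 (adjusted p = 0.0213), still lower but under 2-fold.

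**Figure D2:**
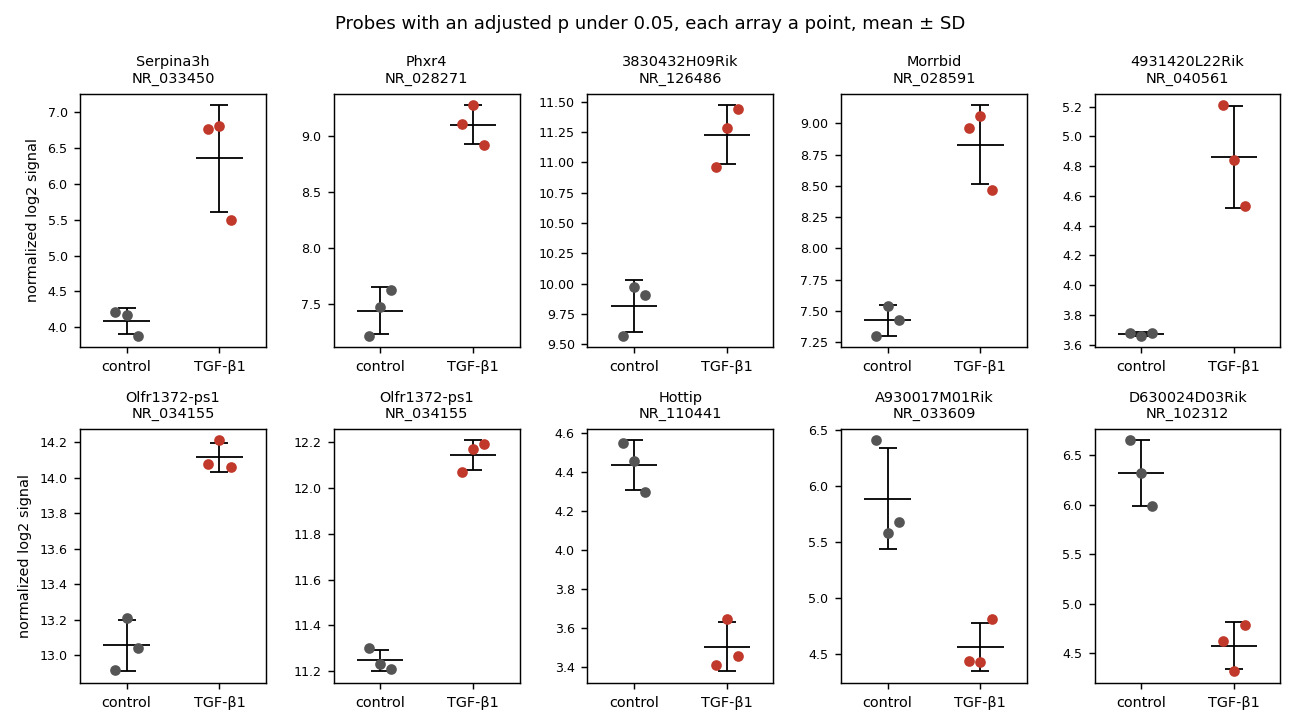
Normalized log2 signal (y axis, scaled for each panel) in 3 control and 3 TGF-β1-treated 2D-MAO cultures for the 10 noncoding probes with an adjusted p below 0.05. Points are arrays and bars are the mean ± SD; in each panel the groups do not overlap, and in the panels of Serpina3h, Phxr4, Morrbid, 4931420L22Rik and the first Olfr1372-ps1 probe replicate 3 is the lowest treated array.

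Of 280 probes for pseudogenes on the array, 140 passed the filter. Of these 2 were called higher (1.43%, beside 0.983% of all probes) and 1 lower (0.714%, beside 0.209%). Their median difference was -0.18, beside -0.05 for all probes tested, with 46 fitted as higher and 94 as lower. At an unadjusted p below 0.05, 14 of the 140 were higher, beside 12.8% of all probes, and 43 were lower (30.7%, beside 13.1%).

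Olfr1372-ps1, a pseudogene of an olfactory receptor, was measured by a pair of probes. The first read 12.92, 13.21 and 13.04 in control cells and 14.08, 14.21 and 14.06 in treated cells. The second read 11.30, 11.23 and 11.21 in control cells and 12.07, 12.17 and 12.19 in treated cells. On both probes the groups were separate. The differences were 1.06 (SE 0.13, adjusted p = 0.0154) and 0.89 (SE 0.11, adjusted p = 0.0168) by limma. The first probe fell below the 2-fold threshold with scaling to the 75th percentile, at 0.86.

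Serpina3h is a member of the Serpina3 cluster of serine protease inhibitors, annotated as a pseudogene. Its probe read 4.22, 4.17 and 3.88 in control cells, on 0 arrays well above background, and 6.76, 6.81 and 5.50 in treated cells. TGF-β1 replicate 3 was the lowest treated array, yet above every control array. The increase was at least 4.79-fold (limma adjusted p = 0.0276), and with normexp the difference was 0.76 (adjusted p = 0.0546). The probe passed the detection filter through the treated arrays alone, and its p rests on control signals not well above background. Serpina3f, a coding gene of the same cluster, was likewise below that level on every control array and read 7.54, 7.36 and 5.95 in treated cells, an increase of at least 7.86-fold (adjusted p = 0.0135). Serpina3b, also in the cluster, gave -0.15. Copies in this cluster are closely related, so the Serpina3h signal may include RNA of its neighbours, which was not tested.

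A930017M01Rik, annotated as a pseudogene, fell. It read 6.41, 5.58 and 5.68 in control cells and 4.44, 4.43 and 4.81 in treated cells. The groups were separate, with control replicate 1 the highest. The difference was -1.33 (SE 0.24, limma adjusted p = 0.048), or 2.51-fold, and -0.51 with normexp. With slide row as a block it was no longer called (adjusted p = 0.0599), while within row 1 the difference was -1.56 (adjusted p = 0.0261). With the replicate number as a block the adjusted p was 0.104. It was called in 1 of 6 sets of 5 arrays.

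Among pseudogenes that were not called, Gm21944 had the largest difference. It read 7.95, 8.26 and 6.77 in control cells and 5.50, 6.27 and 5.25 in treated cells. The difference was -1.98 (SE 0.42, adjusted p = 0.0668), and control replicate 3 was the lowest control array. It passed the thresholds with slide row as a block (adjusted p = 0.0237), with the replicate number as a block (0.0457) and among probes above background on all 6 arrays (0.0461). Sprr2j-ps, a pseudogene of the small proline-rich proteins of squamous epithelium, read 11.56, 11.14 and 11.19 in control cells and 9.88, 9.62 and 11.09 in treated cells. Its difference was -1.10 (adjusted p = 0.128), and -1.55 without TGF-β1 replicate 3 (adjusted p = 0.00812). E030024N20Rik gave 1.08 (adjusted p = 0.0726) and Gm3002 gave 1.01 (adjusted p = 0.0779).

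For 20 pseudogene probes the symbol names a parent gene that was also tested. In 13 of these the pseudogene and the parent had differences of the same sign, and none of either was called. Pisd, C4bp and Smarca5 were each the parent for several of these probes. Pisd-ps1, a copy of the phosphatidylserine decarboxylase gene Pisd, gave 0.48 beside 0.61 for Pisd. Tubb2a-ps2 gave -0.48 beside -0.15 for the tubulin gene Tubb2a, and Gpx2-ps1 gave -0.49 beside -0.17 for the glutathione peroxidase gene Gpx2. The remaining pairs had opposite signs, among them Rps15a-ps6 at 0.23 beside -0.28 for Rps15a. C4bp-ps1 gave -0.18 and -0.27 on its probes beside 0.36 for C4bp. Signals of a parent and of a near-identical copy cannot be separated where a probe matches both.

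The long noncoding RNA genes had 606 of 2044 probes tested, with a median of -0.08. Of the 606, 4 were called higher and 1 lower, where the shares of all probes tested were 0.983% and 0.209%. Of the 10 lists of noncoding RNAs, the pseudogenes, with 145 probes tested, held 3 called probes, and the other lists, with 114 further probes between them, held 0. At the shares of all probes, 114 probes would hold few calls, so the 0 does not set these lists apart. Host genes of small nucleolar RNAs (snoRNAs), which are spliced to release guides for ribosomal RNA modification, all passed the detection filter, with 16 of 16 probes. Their median difference was -0.01, with 7 fitted as higher and 9 as lower.

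Snhg5 differed most among the snoRNA hosts. It read 11.88, 12.35 and 12.26 in control cells and 12.95, 13.07 and 12.84 in treated cells. The groups were separate, and the difference was 0.79 (SE 0.16, limma adjusted p = 0.0595). Snhg18 gave 0.39 (adjusted p = 0.452), Epb41l4aos gave -0.36 (adjusted p = 0.13) and Snhg1 gave -0.28 (adjusted p = 0.263). Small structural RNAs were as even: 23 of 25 probes passed, with a median of 0.07 and none called. Rnu12, the U12 RNA of the minor spliceosome, gave -0.57 (adjusted p = 0.141). Vaultrc5, a vault RNA, was above background on all treated and no control arrays. Its group means gave a bound of 1.24-fold higher, and the difference was not called (limma adjusted p = 0.13). Terc, the RNA template of telomerase, gave -0.40 (adjusted p = 0.263). Labelling kits that start from poly(A) tails read RNAs without a tail poorly, and what part of these short RNAs was read is not known.

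Mir100hg carries the microRNAs miR-100, let-7a-2 and miR-125b-1. Its probe read 7.07, 7.71 and 7.71 in control cells and 8.95, 9.27 and 7.98 in treated cells. The treated arrays were all above the control arrays, though TGF-β1 replicate 3 was close to them. The difference was 1.24 (SE 0.34, limma adjusted p = 0.0996) with all arrays and 1.62 (adjusted p = 0.0137) without TGF-β1 replicate 3. A pair of mature microRNAs of this host is shown, with the seed, bases 2 to 8, in capitals, because the seed sets which transcripts a microRNA pairs with. They are RefSeq sequences on the plus strand of GRCm38.p6, at chr9:41531437-41531458 for miR-100-5p and chr9:41581940-41581961 for miR-125b-5p, inside the span of Mir100hg. The microRNAs themselves were not measured.
miR-100-5p: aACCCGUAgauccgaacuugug
miR-125b-5p: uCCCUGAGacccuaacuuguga

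Of the list of microRNA genes and hosts, 6 of 15 probes passed and none was called, with a median of 0.31. Mir22hg, the host of miR-22, gave 0.48 (adjusted p = 0.173), and its groups did not overlap, with 12.19, 12.68 and 12.64 in control and 13.06, 13.20 and 12.70 in treated cells. Probes for Mir99ahg, which carries relatives of the Mir100hg microRNAs, gave -0.41 and 0.24. Dleu2, the host of miR-15a and miR-16, gave -0.04 (adjusted p = 0.924). Carmn, the host of miR-143 and miR-145, was above background on all treated and no control arrays. Its group means gave a bound of 1.25-fold higher, and the difference was not called (limma adjusted p = 0.232). Dnm3os, H19 and Mirg did not pass the detection filter.

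Meg3, an imprinted long noncoding RNA, differed more between treated arrays than between groups. It read 4.33, 4.66 and 3.96 in control cells and 6.79, 6.34 and 3.26 in treated cells. TGF-β1 replicates 1 and 2 were above every control array, and replicate 3 was below all of them. The difference was 1.15 (SE 0.84, limma adjusted p = 0.399) with 6 arrays and 2.25 (adjusted p = 0.0074) without TGF-β1 replicate 3.

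Markers of several cell types were read on the same arrays. The 3 fibroblast markers tested (Col1a1, Col1a2 and Pdgfra) had a summed linear signal of 92.5 to 114 on the control arrays and 168 to 217 on the TGF-β1 arrays. Of these, Col1a1 and Col1a2 were called higher and Pdgfra was not, at 0.21. The basal markers Krt5 and Trp63 summed to 9770 to 14600 in control and 13200 to 40900 in treated cells, with TGF-β1 replicate 3 the lowest of the treated. These ranges overlap, and the probes summed were not called, although a second Trp63 probe was (1.13, adjusted p = 0.0313). The ciliated marker Foxj1, at 188 to 200 and 518 to 547, was called higher. The type 1 alveolar markers Cav1 and Ager summed to 13900 to 35500 in control and 19000 to 27400 in treated cells, and neither was called. The leukocyte marker Cd68 read 1340 to 2600 in control and 3030 to 4660 in treated cells, groups that did not overlap, though its probes were not called (0.83 and 0.90, adjusted p = 0.141 and 0.114). The club cell markers Scgb1a1 and Scgb3a2 summed to 747 to 2220 in control and 983 to 1620 in treated cells. They went opposite ways, with Scgb1a1 at -2.27 (limma adjusted p = 0.118) and Scgb3a2 at 1.05 (0.0917), and neither was called. The part of such cells in the values of Mir100hg, Meg3, Carmn and the called RNAs was not tested.

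Kcnq1ot1, the antisense RNA that silences the imprinted domain around the potassium channel gene Kcnq1, was read by 4 probes with unequal results. The probe with the largest difference read 6.87, 7.32 and 7.62 in control cells and 8.09, 8.29 and 8.06 in treated cells. Its groups were separate, at 0.88 (SE 0.20, limma adjusted p = 0.0763). The other probes gave 0.64, 0.55 and 0.02. The probes for Kcnq1, on the other hand, gave -0.71 to -0.34, and their adjusted p ranged from 0.0926 to 0.216. Airn, which silences Igf2r, gave 0.45 and -0.01 on a pair of probes, and Peg13 gave -0.20. Of the imprinted list, 9 of 16 probes passed, none was called and the median was 0.45. Rian and H19 did not pass.

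Nuclear and X-linked long noncoding RNAs had 13 of 18 probes tested, with none called and a median of 0.02. Neat1, the scaffold of paraspeckles, read 11.29, 11.24 and 11.05 in control and 11.14, 11.19 and 10.99 in treated cells on the first of its probes, a difference of -0.08 (SE 0.13, adjusted p = 0.702). The second Neat1 probe gave 0.02 (adjusted p = 0.952), and its sign turned to -0.16 with scaling to the 75th percentile. Norad, which sequesters Pumilio proteins, gave -0.44, -0.41, -0.37 and 0.03 on 4 probes, with adjusted p from 0.171 to 0.871. Firre gave 0.32 (adjusted p = 0.302) and Jpx gave -0.14 (adjusted p = 0.623). Ftx, Miat and Xist did not pass the filter. Growth and p53-related RNAs had 6 of 6 probes tested and none called. Oip5os1 gave -0.44 (adjusted p = 0.167), and Pvt1, beside the Myc gene, gave 0.22 and -0.05.

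At developmental loci, 6 of 20 probes passed and none was called, with a median of -0.32. Hottip, a transcript of the distal end of the Hoxa cluster, read 4.55, 4.46 and 4.30 in control cells and 3.41, 3.65 and 3.46 in treated cells. It was above background on all 3 control arrays and 1 treated array, and the groups were separate. The difference was -0.93 (SE 0.13, limma adjusted p = 0.0239), under 2-fold, and -0.18 with normexp. Halr1, which lies next to the other end of the Hoxa cluster, read 4.09, 3.77 and 4.10 in control and 5.39, 5.08 and 4.60 in treated cells. Halr1 differed the other way, by 1.04 (SE 0.21, adjusted p = 0.0647), and by 1.25 without TGF-β1 replicate 3 (adjusted p = 0.0117). With normexp its difference was 0.26 (adjusted p = 0.137), and it was not well above background on every array. Hoxa11os gave -0.40, Hoxaas3 -0.34 and Hoxb5os -0.31, with none called. The coding Hoxa genes tested near these RNAs gave -0.49 to 0.18, and none was called.

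Of the list of RNAs linked to TGF-β or EMT in general knowledge, 6 of 12 probes passed and none was called, with a median of 0.43. It holds Mir100hg, Meg3, Mir22hg, Carmn and Neat1, whose values are given above. Of the 6 probes, 5 were fitted as higher, while 55.2% of all probes tested were fitted as lower. Among these 5, Carmn passed the filter through the treated arrays alone, so its sign is not independent of the filter. The second Neat1 probe, at 0.02, turned to -0.01 with normexp. The tally therefore does not show a direction for the list. Dnm3os, H19 and Zeb2os did not pass the filter.

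**Figure D3:**
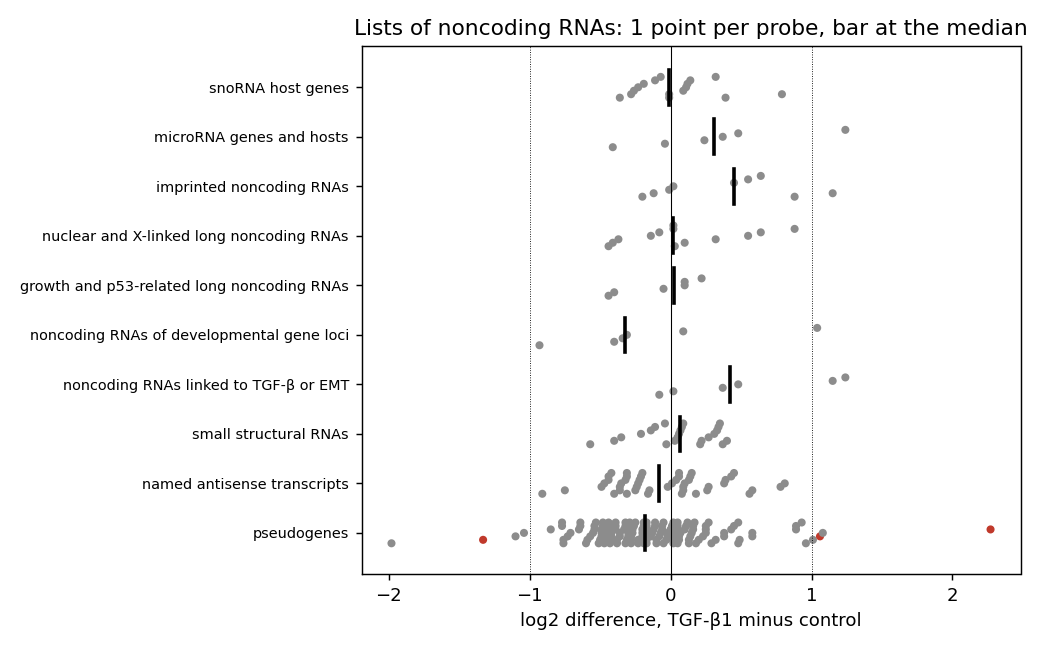
Log2 difference between TGF-β1-treated and control 2D-MAOs (x axis) for the probes tested in each of 10 lists of noncoding RNAs, 1 point per probe, with a bar at each list's median; some RNAs are in several lists. Red points were called, and 3 of them lie in the pseudogene list and 0 in the other lists.

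Antisense transcripts with a name of their own gave 46 of 152 probes above the filter, none called, and a median of -0.09. Ptgs2os2, transcribed near the prostaglandin synthase gene Ptgs2, read 8.22, 8.92 and 8.56 in control and 7.37, 7.84 and 7.75 in treated cells. Its difference was -0.91 (SE 0.21, limma adjusted p = 0.0782), and Ptgs2 gave 0.36 (adjusted p = 0.442). Rsf1os1, which overlaps the chromatin remodelling gene Rsf1, gave 0.78 (adjusted p = 0.0553), and Rsf1 gave 0.29. The first Ttc39aos1 probe gave -0.75 (adjusted p = 0.0641) and the second 0.08, while Ttc39a gave -0.49 to -1.22 on 3 probes. Has2os, antisense to the hyaluronan synthase gene Has2, gave 0.56 (adjusted p = 0.28), and Has2 was called higher at 1.65 (adjusted p = 0.0346). The array does not show on which strand a probe reads, beyond the design of its sequence, and RNA of overlapping genes cannot be told apart where they share bases.

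Genes that RefSeq types as long noncoding RNA, a class that also takes in Vaultrc5, Ube2d-ps and Sfta3-ps, could be set beside a coding neighbour in 539 pairs, for 381 noncoding genes that overlapped a coding gene or lay within 10 kb of it. In 53.4% of pairs the differences had the same sign, and Pearson's r was 0.16 across pairs. The pairs share arrays and some genes, so r is a description. For the 251 overlapping pairs r was 0.18, for 153 of them on opposite strands 0.15 and for 18 on the same strand 0.37. For Phxr4 and Maml2 the values were 1.65 and 0.68, of which the first was called. A330048O09Rik, next to Id4, an inhibitor of basic helix-loop-helix factors, gave -1.08 (adjusted p = 0.093), and Id4 gave -0.90 (adjusted p = 0.117). A630012P03Rik gave 0.20, while Gpc3, the glypican gene it overlaps, was called higher at 1.57 (adjusted p = 0.0398).

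**Figure D4:**
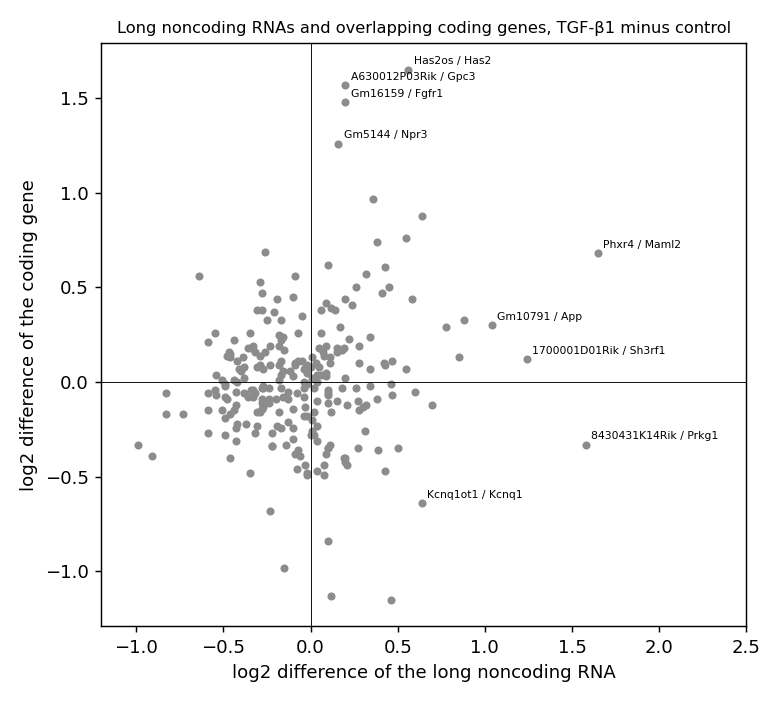
Log2 difference of a long noncoding RNA (x axis) against that of a coding gene overlapping it (y axis), TGF-β1-treated minus control, for 251 pairs with 1 probe per gene. Labelled pairs are those with the larger differences and Kcnq1ot1; r across all pairs was 0.18.

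Noncoding variants of protein-coding genes had 37 of 51 probes tested, none called, and a median of 0.06. The variant of Bmp1, the protease that trims procollagens, read 9.35, 9.71 and 9.92 in control cells and 11.02, 11.39 and 10.43 in treated cells. The groups were separate, and the difference was 1.29 (SE 0.26, limma adjusted p = 0.0631), or 1.55 without TGF-β1 replicate 3 (adjusted p = 0.0119). The probes for coding Bmp1 transcripts gave 1.20 (adjusted p = 0.0643) and 0.74 (adjusted p = 0.0892).

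For 29 genes the brightest noncoding and the brightest coding probe were compared within each array. By limma on that difference, 0 of 29 (0%) changed unequally by 2-fold or more, and 6 had an unadjusted p below 0.05. Ppp1r12b, a regulatory subunit of myosin phosphatase, had the largest gap, with 1.01 for the noncoding and 0.03 for the coding probe (difference 0.98, adjusted p = 0.136). Ccdc169 had a gap of 0.97 (adjusted p = 0.142) and Alg13 of 0.77 (adjusted p = 0.102). Sec14l1, of the lipid-binding Sec14 family, had an adjusted p of 0.0403 at a gap of 0.88, with 0.12 for the noncoding and -0.76 for the coding probe. Without TGF-β1 replicate 3, Ppp1r12b (1.33), Ccdc169 (1.28) and Sec14l1 (1.01) passed both thresholds.

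Where a gene had several noncoding probes, which was so for 50 genes, 29 had all of them on the same side of 0, and the median spread between probes of a gene was 0.21. The spread was largest for Ube2d-ps (0.98) and Kcnq1ot1 (0.86).

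Detection differed between the groups for few RNAs. Above background on all 3 treated and no control arrays were 7 probes, for 3100003L05Rik, 4930596I21Rik, 4931420L22Rik, Carmn, Gm4850, Serpina3h and Vaultrc5. The share of all probes with such a split is not given here. The lowest signal well above background was 4.12, 4.19 and 3.62 on the control arrays and 3.63, 3.47 and 4.07 on the TGF-β1 arrays. A split can thus arise with little difference in signal: 4930596I21Rik had means of 3.88 in control and 3.99 in treated cells (limma adjusted p = 0.819). The reverse held for 1 probe, for 4930441H08Rik, which read 4.69, 4.50 and 4.47 in control and 3.84, 3.44 and 3.90 in treated cells. Its bound from the group means was 1.69-fold lower, and the difference was not called (limma adjusted p = 0.0553). For 3100003L05Rik the bound from the group means was 1.35-fold higher, and the difference was not called (limma adjusted p = 0.0893).

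The calls depended on which arrays were used. The increase of Phxr4 lay between 1.54 and 1.74 in all sets of 5 arrays, with an adjusted p of 0.00551 to 0.0459. The increase of Morrbid had an adjusted p of 0.00434 to 0.0926, that of 3830432H09Rik of 0.012 to 0.0771, and the decrease of D630024D03Rik of 0.00894 to 0.069. In each of these 4 genes the lowest adjusted p came from the set without TGF-β1 replicate 3. Beside that set, Morrbid was called without control replicate 3, 3830432H09Rik without control replicate 3 and without TGF-β1 replicate 1, and D630024D03Rik without control replicates 1 and 3 in turn. Olfr1372-ps1 was called without TGF-β1 replicate 3, control replicate 2 and control replicate 3, with an adjusted p of up to 0.0822 otherwise. Serpina3h, 4931420L22Rik and A930017M01Rik were called in the set without TGF-β1 replicate 3 alone, with an adjusted p of up to 0.125, 0.118 and 0.188 in the others. None of the 10 probes changed sign in any set.

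**Figure D5:**
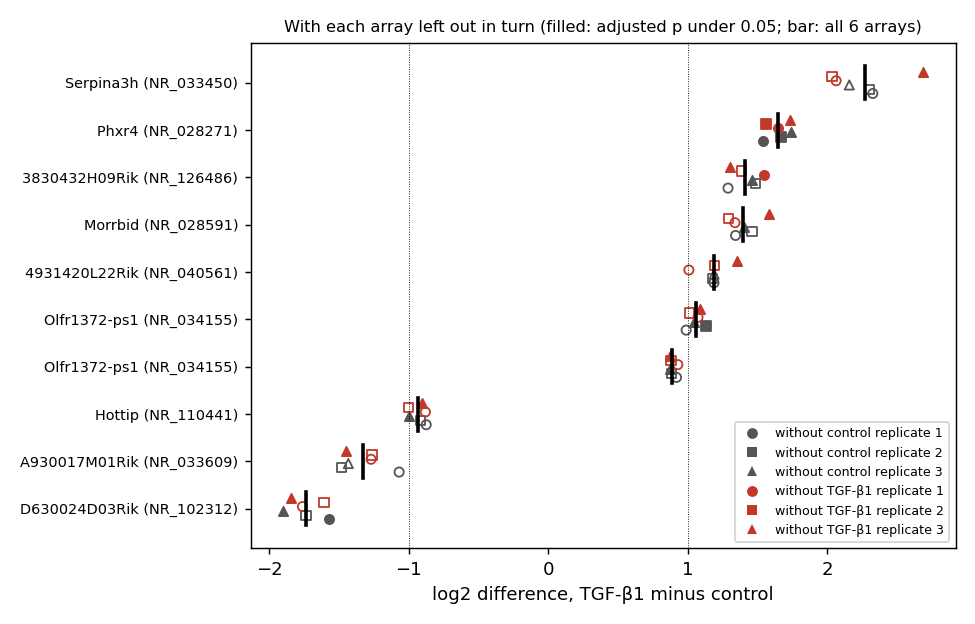
Log2 difference (x axis) of the 10 noncoding probes with an adjusted p below 0.05, with each of the 6 arrays left out in turn (symbols) and with all arrays (black bar). Filled symbols have an adjusted p below 0.05; all symbols of a probe lie on the same side of 0, and those of Phxr4 are filled in all 6 sets.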

How the data were processed

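RNA of 6 cultures of 2D-MAOs, 3 control and 3 TGF-β1-treated, was labelled with Cy3 (Quick Amp kit) and hybridized to 6 Agilent arrays. The authors deposited the intensity of each spot on a linear scale, after background subtraction by Agilent Feature Extraction 11.0.1.1, with no normalization between arrays. Control spots and spots marked as uneven or outliers were left out, and 56599 of 56605 probes remained. Accessions were matched to genes through RefSeq tables of GRCm38.p6, which named 2407 of 2477 noncoding probes. Log2 signals were normalized by quantiles, probes had to pass Feature Extraction's mark for signals above background on 3 of 6 arrays or more, and limma 3.58.1 in R 4.3.3 compared the groups without further terms. p was adjusted by Benjamini-Hochberg over all 32460 probes tested. A group below background on all of its arrays gives a bound, computed against the lowest signal well above background on each array. The bound compares group means and carries no measure of spread. Precision is limited by how many arrays there were, and levels were compared between arrays and not between probes, since brightness depends on the probe. For the coding and noncoding probes of a gene, the change in their difference within an array was tested.

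The members and lists were chosen with earlier results of these data known. Probes were named by call, by detection, by a set of well-known RNAs, by the largest differences in each list, and by the largest gaps between coding and noncoding probes. Others were named after their values were seen: those just short of the threshold, those that overlap a coding gene and those called only without TGF-β1 replicate 3. Alternatives included normexp with an offset of 50 on the median brightness, scaling to the 75th percentile, other filters and thresholds, the methods' t-test, other variance settings, blocks, and leaving out each array. The analysis was tested on simulated data. Malat1, Gas5, Mir17hg and Tsix were not analysed here.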

Additional observations from a re-analysis of the deposited data

How the results depend on the processing

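The main counts were 6 noncoding probes higher and 2 lower. With no filter on dim probes they were 0 and 0 (all probes 0.0601% and 0.0159%), where 56599 probes were adjusted for. With the methods' t-test after adjustment they were also 0 and 0 (all probes 0.00308% and 0%). At an unadjusted p by limma they were 18 and 8 (2.11% and 0.938%, beside 2.44% and 0.699% of all probes), and by the methods' t-test 15 and 7 (1.76% and 0.821%, beside 1.93% and 0.502%). Trend and robust fitting of the variance prior gave 10 and 4 (all probes 1.59% and 0.376%), array weights 29 and 16 (3.40% and 1.88%, all probes 3.84% and 1.38%), and the arrays of slide row 1 alone 29 and 24 (3.40% and 2.81%, all probes 4.44% and 1.94%). Slide row as a block gave 7 and 2 (0.821% and 0.234%, all probes 1.00% and 0.250%), with 1700001D01Rik and Gm21944 gained and A930017M01Rik lost. Normexp, which adds an offset and so shrinks dim differences, gave 5 higher and 1 lower (Gm21944). These were 0.586% and 0.117%, beside 0.770% and 0.129% of all probes. Leaving out each array gave 1 to 24 higher (0.117% to 2.81%, all probes 0.206% to 3.57%) and 0 to 16 lower (0% to 1.88%, all probes 0.0308% to 1.30%). TGF-β1 replicate 3 gave the upper ends, and without control replicate 3 there were 4 lower. The sets lacking control replicate 1 or 2 gave 1 higher (Phxr4) and 1 lower (D630024D03Rik), and 2 higher (Phxr4 and Olfr1372-ps1) and 0 lower. Those lacking TGF-β1 replicate 1 or 2 gave 2 (Phxr4 and 3830432H09Rik) and 1 (Phxr4) higher, and 0 lower. Genes with unequal noncoding and coding probes numbered 0, with 1 when no fold was required and 0 to 3 when an array was left out. The second Neat1 probe, at 0.02, turned to -0.16 with scaling to the 75th percentile, to -0.01 with normexp, and ranged from -0.08 to 0.11 over the sets of 5 arrays. The causes of these changes were not tested beyond the settings' own construction.

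Whether the replicate numbers pair the cultures is not known. Deviations of same-numbered samples from their group means correlated at 0.015, 0.25 and -0.082. Those of differently numbered samples correlated at -0.35 to 0.227, and with 3 arrays per group these values cannot decide it. The replicate number as a block gave 3 higher (Phxr4, 3830432H09Rik and Serpina3h) and 1 lower (Gm21944), beside 0.379% and 0.0524% of all probes, and 0 genes with unequal probes.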
